A study of Homo sapiens with 6 samples.

Results

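The core of the RAS-RAF-MEK-ERK pathway was followed through 7 genes, taken by symbol, in fludarabine-resistant and control pools of HG3 cells: the RAS genes NRAS and HRAS, the RAF genes BRAF and ARAF, the MEK genes MAP2K1 and MAP2K2, and the ERK gene MAPK3. They are 7 named genes of 23619 with a value, and all 7 were among the 11307 that were tested. HG3 is a lymphoblastoid cell line derived from chronic lymphocytic leukaemia, a cancer of B cells. Fludarabine is a purine nucleoside analogue used against that leukaemia. The series title places the pools in a transposon mutagenesis study, in which a mobile element inserts into genes before drug selection, and the design asked whether resistant and parental cells differed across the transcriptome.

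Total RNA was sequenced from 3 fludarabine-resistant pools and from 3 control pools, each group having pools 17, 18 and 28 and 1 library for each. All 6 libraries came from HG3. The sample titles call the resistant libraries treated samples and the others control samples. Drug treatment and selected resistance therefore cannot be told apart in any comparison here. The drug's dose, the length of selection, whether it was present at harvest, the age of the cultures and the insertions in each pool are not stated in the labels used here. No label tells whether each pool was its own culture throughout, and p-values can speak only for the spread among these libraries.

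RAS proteins are small GTPases at the inner face of the plasma membrane that switch on when a receptor, in B cells the B cell receptor among others, recruits an exchange factor. Active RAS binds RAF kinases, RAF phosphorylates the MEK kinases, and MEK phosphorylates the ERK kinases, which enter the nucleus and change transcription. Much of the control of this cascade acts on the proteins, through nucleotide binding and phosphorylation, which RNA levels do not show. BRAF was a gene the study itself followed, so its values are no independent evidence.

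In each library 10936 to 11331 genes had at least 1 FPKM, a unit that divides fragments by the length of the transcript and the size of the library. Depth relative to control 17, read from the steps between low values, ranged from 1.04 to 1.30 in resistant libraries and from 1 to 1.26 in controls, and absolute depth is unknown. On the first principal component (41.4% of variance) resistant 18 lay at 58.8, and the other libraries between -33.5 and 6.81. All 8 B cell markers reached 1 FPKM in every library, with sums of 1990 to 2930 FPKM in resistant libraries and 2100 to 2600 in controls. Summed T and NK cell markers reached 0.691 FPKM in resistant libraries and 0.362 in controls. Summed myeloid markers spanned 2.41 to 8.22 FPKM and 2.38 to 3.36 FPKM, with ITGAM at 6.05 in resistant 18. Erythroid and fibroblast sums stayed under 1 FPKM, with HBB, HBA1, HBA2 and DCN at 0. Epithelial sums were 0.174 to 2.30 FPKM in resistant libraries and 1.81 to 5.92 in controls, with EPCAM at 0, and their part in the results was not tested. In bulk RNA, fewer cells of a type and less RNA per cell cannot be told apart.

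None of the 7 genes passed the threshold of the test. Both RAF genes were lower in all 3 resistant pools, without overlap between groups. MAP2K2 was also lower in all 3 pools and HRAS higher in all 3, each with groups that overlapped. With trends in GC content and transcript length removed, BRAF and HRAS each turned sign in pool 17, and the groups of BRAF then overlapped. NRAS, MAP2K1 and MAPK3 had differences of both signs among the pools.

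Counted over the 7 genes, 0 passed limma's adjusted p of 0.05 in either direction, where 0.0354% of all tested genes did (4 of 11307), 0.0177% higher and 0.0177% lower. At an unadjusted p under 0.05 there was 1 gene, BRAF, lower in resistant libraries, where 7.14% of tested genes were lower and 5.99% higher. Groups did not overlap for 2 genes that were lower and 0 that were higher, beside 11.1% and 10.1% of tested genes. Lower values in all 3 resistant pools were seen for 3 genes and higher values for 1, beside 18.7% and 18.9% of tested genes. With GC and length trends removed, ARAF and MAP2K2 were lower in all 3 pools and MAP2K1 higher. The share of all genes on those values is not given, so no count is set beside it. The differences of the 7 genes were positive for 4 and negative for 3, with a median of 0.04 on the log2(FPKM + 1) scale against 0.01 over all tested genes.

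The 7 transcripts spanned a wide range of levels, which FPKM sets per length. MAP2K2 was the most abundant, at a mean of 175 FPKM over the 6 libraries, above 93.7% of tested genes. MAP2K1 followed at 52.4 FPKM and above 84.1% of tested genes. NRAS and HRAS stood next at 32.5 and 31.0 FPKM. These neighbours in the order could not be separated, since NRAS exceeded HRAS in 4 of 6 libraries. ARAF averaged 17.5 FPKM, MAPK3 12.0 and BRAF 8.35, the last above 41.1% of tested genes. MAPK3 exceeded BRAF in all 6 libraries, although the ranges of the pair overlapped across libraries. The 2 genes were close in control 17 (8.06 against 7.79 FPKM) and in control 28 (both 12.3 FPKM when rounded). The other steps in the order had ranges that did not overlap.

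**Figure D1:**
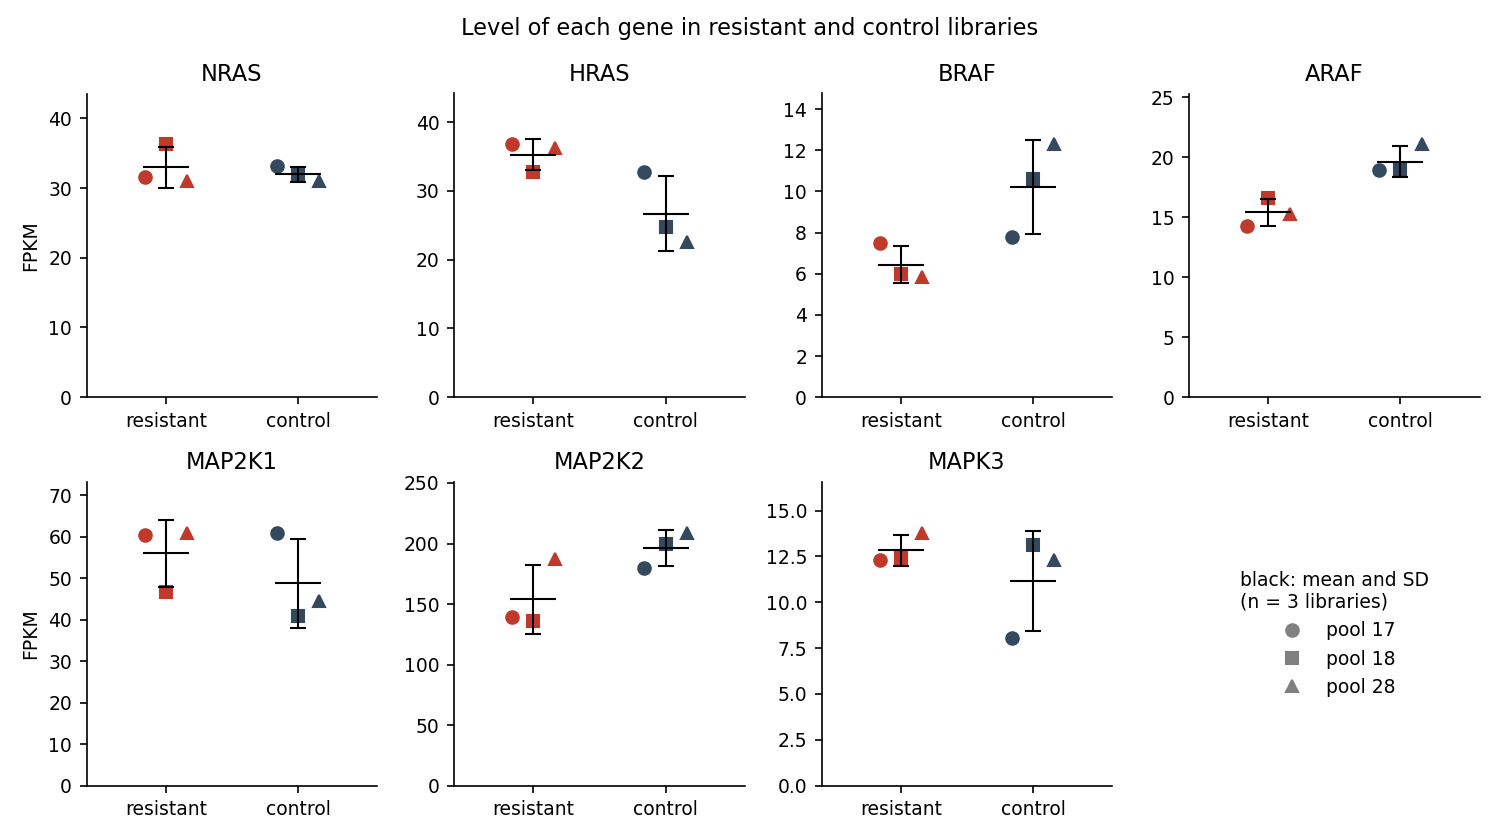
FPKM of the 7 genes in each library on linear axes, 1 panel a gene, with resistant libraries left of controls, a symbol for each pool, and the mean and SD of 3 libraries in black. BRAF in resistant libraries lay between 5.86 and 7.49 FPKM, all under the lowest control at 7.79, and ARAF between 14.3 and 16.6, under 18.9.

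At the RAS tier, neither gene passed, and HRAS had the larger difference. NRAS, a RAS isoform that cycles between the plasma membrane and the Golgi, had 31.6, 36.3 and 31.0 FPKM in resistant 17, 18 and 28, against 33.1, 31.8 and 31.0 FPKM in the controls of the same pools. All 6 values lay close together and the groups overlapped. The mean was 33.0 ± 2.92 FPKM in resistant libraries and 31.9 ± 1.06 in controls (SD, n = 3 each), with a log2 difference of 0.04 (SE 0.15, 95% interval -0.31 to 0.39, limma adjusted p = 0.936). The sign of this difference turned without resistant 18 (-0.03).

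HRAS, the isoform found mostly at the plasma membrane, had 36.8, 32.7 and 36.3 FPKM in resistant 17, 18 and 28, against 32.8, 24.8 and 22.5 FPKM in controls. The resistant libraries were the higher ones in each pool, and the groups overlapped only because control 17 reached the level of resistant 18. The mean was 35.3 ± 2.22 FPKM in resistant libraries and 26.7 ± 5.40 in controls, 1.32 times as high. The log2 difference was 0.41 (SE 0.18, interval -0.03 to 0.84), which did not pass (limma adjusted p = 0.403). Controls 17 and 28 themselves differed by 0.52, more than the groups did. The pools gave 0.16, 0.39 and 0.67, and with GC and length trends removed -0.10, 0.88 and 0.34, so that HRAS was then no longer higher in pool 17.

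At the RAF tier, BRAF and ARAF were both lower in resistant libraries. BRAF encodes the RAF kinase with the highest basal activity. It had 7.49, 5.98 and 5.86 FPKM in resistant 17, 18 and 28, against 7.79, 10.6 and 12.3 FPKM in controls 17, 18 and 28. Resistant 17 was the highest of its group and control 17 the lowest of its own, and the groups did not overlap. The mean was 6.44 ± 0.909 FPKM in resistant libraries and 10.2 ± 2.29 in controls, 1.59-fold lower. On the log2 scale the difference was -0.58 (SE 0.20, interval -1.06 to -0.11, limma unadjusted p = 0.0229), which missed the threshold over all genes (adjusted p = 0.300). Over the alternatives the adjusted p lay between 0.107 and 0.923. Control 17 stood apart from control 28 by -0.60, as large as the difference between groups.

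The BRAF difference was not shared evenly between pools. Resistant and control libraries hardly differed in pool 17 (-0.05), and differed by -0.74 in pool 18 and by -0.96 in pool 28. Of all tested genes, 47.3% had a lower value in pool 17, 12.4% in pool 18 and 4.50% in pool 28. With trends in GC content and transcript length removed from each library, the 3 values were 0.10, -0.82 and -0.64, so pool 17 changed sign and the groups overlapped. The longest annotated BRAF transcript has 9578 bases and a GC content of 40.0%, against medians of 3323 bases and 48.4% over matched genes.

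ARAF, an X-linked RAF kinase of lower basal activity, had 14.3, 16.6 and 15.3 FPKM in resistant 17, 18 and 28, against 18.9, 18.9 and 21.1 FPKM in controls. All 3 resistant libraries were below all 3 controls, and both groups were tight. The mean was 15.4 ± 1.18 FPKM in resistant libraries and 19.6 ± 1.30 in controls, 1.27-fold lower. Its log2 difference of -0.33 (SE 0.15, interval -0.67 to 0.02) did not pass (limma adjusted p = 0.397). Pools 17, 18 and 28 gave -0.38, -0.17 and -0.44, and with GC and length trends removed -0.41, -0.13 and -0.59, with groups that still did not overlap. Any pair of controls differed by at most 0.15 in ARAF.

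The promoters of BRAF and ARAF are shown because, as deposited, only these 2 genes had groups that did not overlap. That of HRAS is shown because it was the 1 gene higher in all 3 pools as deposited. Each is the 300 bases from 250 before to 50 after the start in RefSeq on GRCh38.p14, 5′ to 3′ on the gene's strand, with matches to CCAAT on either strand in capitals.
BRAF (chr7:140924219-140924518, minus strand): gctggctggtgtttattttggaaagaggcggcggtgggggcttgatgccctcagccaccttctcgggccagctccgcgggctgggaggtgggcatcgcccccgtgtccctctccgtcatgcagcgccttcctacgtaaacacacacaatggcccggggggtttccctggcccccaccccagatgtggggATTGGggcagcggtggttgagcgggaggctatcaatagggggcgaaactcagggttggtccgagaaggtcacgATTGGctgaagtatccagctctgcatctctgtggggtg
ARAF (chrX:47560955-47561254, plus strand): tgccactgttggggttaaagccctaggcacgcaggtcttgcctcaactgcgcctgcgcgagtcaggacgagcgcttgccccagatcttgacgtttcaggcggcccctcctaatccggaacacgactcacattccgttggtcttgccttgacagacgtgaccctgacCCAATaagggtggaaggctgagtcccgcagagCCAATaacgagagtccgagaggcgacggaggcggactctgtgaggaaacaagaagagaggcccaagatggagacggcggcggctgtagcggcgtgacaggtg
HRAS (chr11:535527-535826, minus strand): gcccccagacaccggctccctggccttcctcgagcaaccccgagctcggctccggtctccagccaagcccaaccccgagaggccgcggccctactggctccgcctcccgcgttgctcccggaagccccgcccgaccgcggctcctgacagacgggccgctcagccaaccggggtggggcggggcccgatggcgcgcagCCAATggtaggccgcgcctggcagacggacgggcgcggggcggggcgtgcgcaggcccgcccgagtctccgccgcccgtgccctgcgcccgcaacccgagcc

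The BRAF and ARAF windows each held 2 CCAAT matches and 0 matches to the GC box GGGCGG on either strand. In the HRAS window there were 1 CCAAT match, 5 GC boxes and 1 match to the ETS letters CCGGAAG. All 7 genes had a promoter in the RefSeq table, 9 windows in all. For the first listed start, GC boxes numbered 3 for NRAS, 3 for MAP2K1, 2 for MAP2K2 and 8 for MAPK3. Of all 35116 promoters of this length, 34.6% held CCAAT, 45.0% GGGCGG, 10.3% CCGGAAG and 1.80% the cyclic AMP response element TGACGTCA, which had 0 matches in the 9 windows. Matches to different motifs shared 0 bases in the 9 windows. GC content was 63.0% in the BRAF window, 60.3% for ARAF and 78.0% for HRAS, against a median of 58.7%.

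At the MEK tier stand the kinases that phosphorylate ERK, and neither gene passed. MAP2K1, encoding MEK1, had 60.5, 46.7 and 60.9 FPKM in resistant 17, 18 and 28, against 61.0, 40.8 and 44.5 FPKM in controls. Resistant 17, resistant 28 and control 17 were the 3 high libraries, so the groups overlapped. The mean was 56.0 ± 8.11 FPKM in resistant libraries and 48.8 ± 10.8 in controls, with a log2 difference of 0.21 (SE 0.21, interval -0.29 to 0.71, limma adjusted p = 0.717). The pools gave -0.01, 0.19 and 0.44, and control 17 exceeded control 18 by 0.57. The difference depended on single libraries: it was 0.09 without control 18 or without pool 28, and 0.38 without control 17, 0.32 without pool 17 and 0.33 without resistant 18. It was 0.09 with quantile normalization and 0.37 with array weights.

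MAP2K2, encoding MEK2, had 139, 136 and 187 FPKM in resistant 17, 18 and 28, against 180, 200 and 209 FPKM in controls. Resistant 17 and 18 were below every control, while resistant 28 was above control 17. The mean was 154 ± 28.8 FPKM in resistant libraries and 196 ± 14.9 in controls, 1.28-fold lower. The log2 difference of -0.36 (SE 0.20, interval -0.82 to 0.10) did not pass (limma adjusted p = 0.474). The pools gave -0.37, -0.56 and -0.16, and with GC and length trends removed -0.62, -0.19 and -0.47, where the groups no longer overlapped.

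At the ERK tier, MAPK3, encoding ERK1, had 12.3, 12.4 and 13.8 FPKM in resistant 17, 18 and 28, against 8.06, 13.1 and 12.3 FPKM in controls. A single low library, control 17, set the difference, and the other 5 lay within a narrow band in which the groups overlapped. The mean was 12.8 ± 0.854 FPKM in resistant libraries and 11.2 ± 2.70 in controls, with a log2 difference of 0.21 (SE 0.20, interval -0.27 to 0.69, limma adjusted p = 0.697). It was 0.01 without control 17 and 0.04 without pool 17, and 0.33 without control 18 and 0.35 without pool 18. The pools gave 0.55, -0.07 and 0.15.

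**Figure D2:**
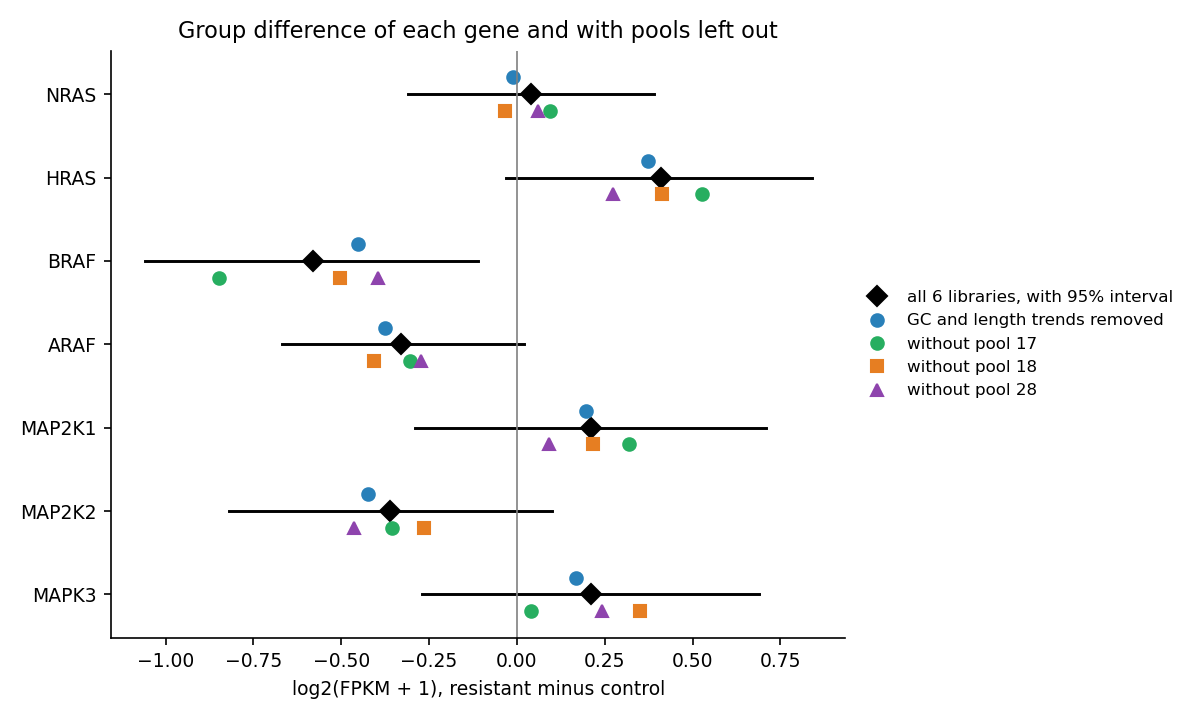
Log2 difference of the 7 genes, resistant minus control, on the log2(FPKM + 1) scale, with the 95% interval from limma over all 6 libraries in black and coloured points for GC and length trends removed and for each pool left out. The interval of BRAF (-1.06 to -0.11) alone leaves out 0, and ARAF (-0.67 to 0.02) and HRAS (-0.03 to 0.84) reach just past it. The intervals are per gene, not adjusted over all tested genes, and BRAF did not pass (limma adjusted p = 0.300). Of all tested genes, 13.1% had a limma unadjusted p under 0.05.

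Past 0.5 on the log2 scale in either direction, few of the 7 genes differed in any pool, and which ones did varied by pool. In pool 17 only MAPK3 did, higher at 0.55, as were 9.94% of tested genes, and 0 of the 7 were lower by as much, as 9.3% of tested genes were. In pool 18 BRAF and MAP2K2 did, lower at -0.74 and -0.56, as were 19.7% of tested genes, and 0 were higher by as much, as 21.3% of tested genes were. In pool 28 HRAS was higher at 0.67 and BRAF lower at -0.96, with 15.7% of tested genes higher and 15.8% lower by as much. Each pool has 1 library per group, so these values have no replicate check. BRAF was the 1 gene of the 7 past 0.5 in more than 1 pool.

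Which gene was past 0.5 in which pool changed once GC and length trends were removed, BRAF apart. MAP2K2 and HRAS were past it on both sets of values, but in different pools. The share of all tested genes past 0.5 with trends removed is not given. In pool 17 MAPK3 was then at 0.48 and MAP2K2 at -0.62. In pool 18 HRAS was at 0.88, MAP2K2 at -0.19 and BRAF at -0.82. In pool 28 ARAF was at -0.59, HRAS at 0.34 and BRAF at -0.64. BRAF in pools 18 and 28 was past 0.5 on both sets of values. With a pseudocount of 5, MAPK3 in pool 17 was at 0.40.

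**Figure D3:**
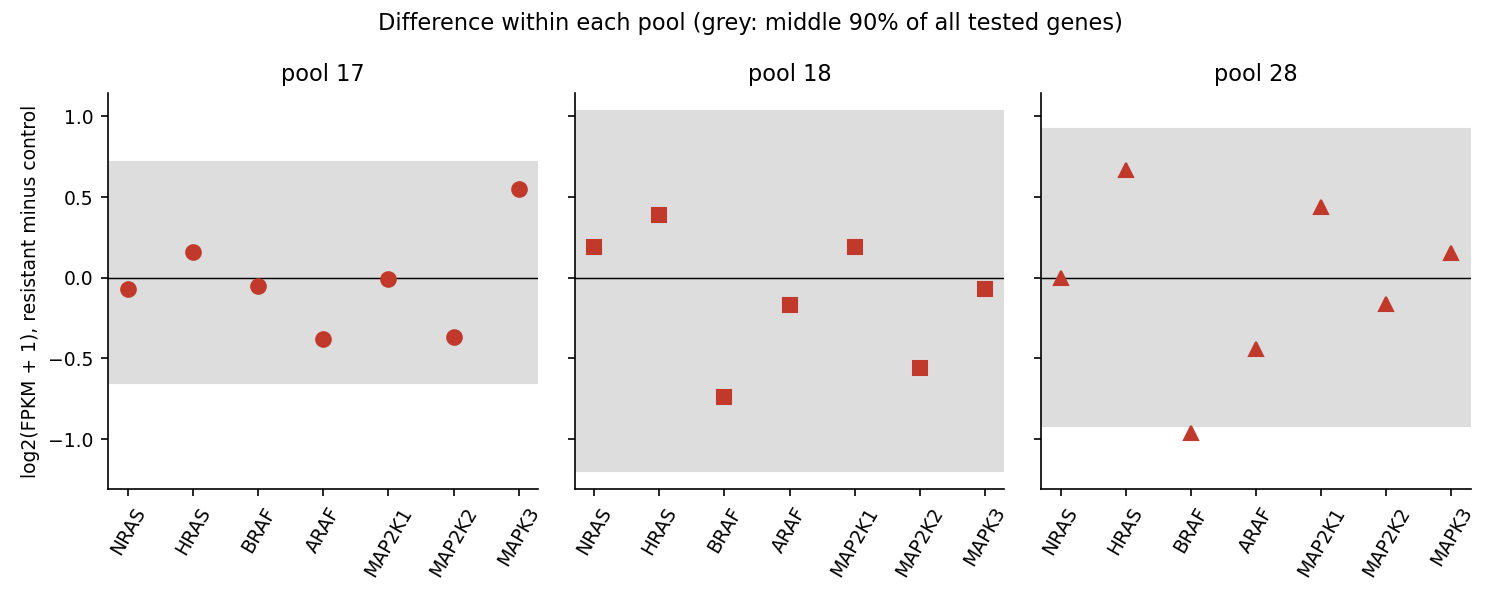
Log2 difference, resistant minus control, of each of the 7 genes within pools 17, 18 and 28, over a grey band that holds the middle 90% of all tested genes in that pool. BRAF lies at -0.05, -0.74 and -0.96, and only its pool 28 value falls below the band, which starts at -0.92 there.

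Ratios between paralogues within a library do not depend on that library's scaling, but trends in GC content and length can still act on them. The ARAF to BRAF ratio was 1.91, 2.79 and 2.61 in resistant 17, 18 and 28, against 2.42, 1.77 and 1.71 in controls, so the resistant libraries were higher in pools 18 and 28 and lower in pool 17. HRAS to NRAS was 1.17, 0.901 and 1.17 in resistant libraries, against 0.991, 0.779 and 0.726 in controls. As deposited it was higher in all 3 pools. With GC and length trends removed, HRAS was at -0.10 and NRAS at -0.06 in pool 17, so their ratio was not higher there. MAP2K2 to MAP2K1 was 2.29, 2.91 and 3.07 in resistant libraries, against 2.95, 4.92 and 4.69 in controls, and was lower in all 3 pools. All 3 ratios had groups that overlapped.

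The log2 ratio differed by 0.30 for ARAF to BRAF, 0.38 for HRAS to NRAS and -0.58 for MAP2K2 to MAP2K1. An exact two-sided permutation test over the 6 libraries gave p = 0.2 for each, and 0.2 adjusted over the 3 ratios. The smallest p that 3 against 3 libraries allow is 0.1, so no ratio could have passed 0.05. The ARAF to BRAF difference was 0.08 with GC and length trends removed. It was 0.47 without resistant 17, 0.46 without control 17 and 0.63 without pool 17, and 0.20 without resistant 18, 0.13 without pool 18 and 0.15 without pool 28. The HRAS to NRAS difference was 0.22 without pool 28.

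**Figure D4:**
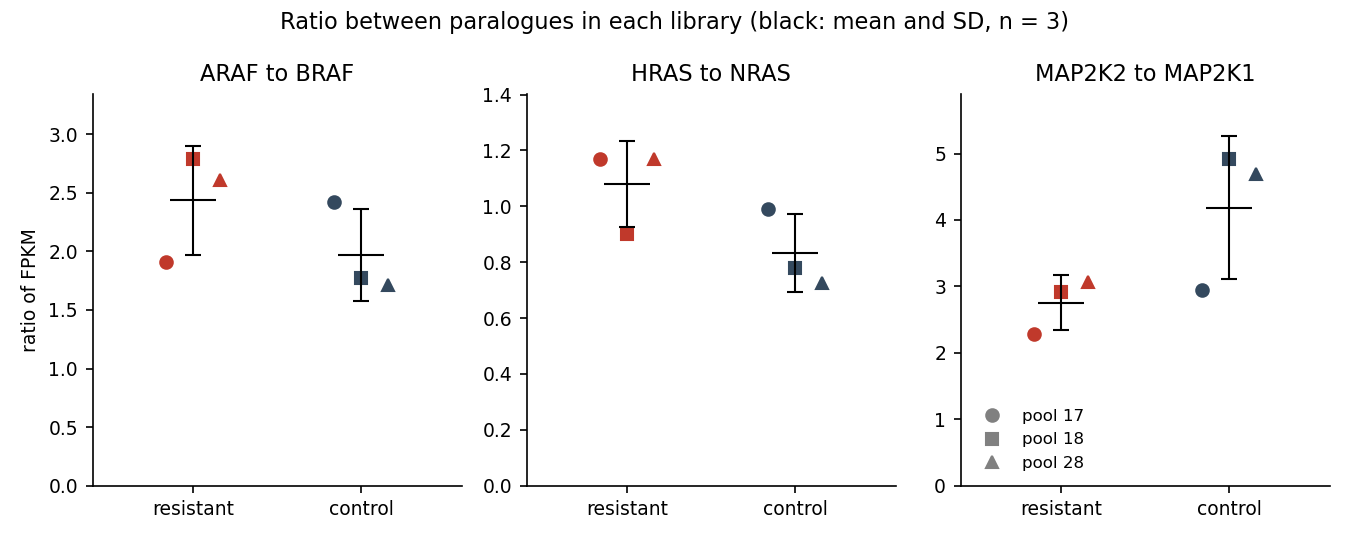
Ratio of FPKM between paralogues in each library on a linear axis, resistant libraries left of controls, with a symbol for each pool and the mean and SD of 3 libraries in black. MAP2K2 to MAP2K1 is 2.29 to 3.07 in resistant libraries and 2.95 to 4.92 in controls.

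Genes beside each member on its chromosome were compared with it, in RefSeq order on GRCh38.p14. The 20 tested genes on each side of BRAF on chromosome 7, from WDR91 to ZNF786, had median differences of -0.10, 0.06 and -0.15 in pools 17, 18 and 28, while BRAF had -0.05, -0.74 and -0.96. Those around ARAF on the X chromosome, 20 on each side from CXorf38 to PIM2, had -0.17, 0.04 and -0.10, while ARAF had -0.38, -0.17 and -0.44. For both RAF genes the neighbours' medians were smaller in size than the gene's own value, except around BRAF in pool 17. A median over many genes varies less than 1 gene, so this cannot show whether the region shared a difference. Around BRAF 25, 20 and 26 neighbours lay below the median of all tested genes in pools 17, 18 and 28, and 15, 20 and 14 above. Around ARAF 27, 20 and 25 lay below, and 13, 20 and 15 above.

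HRAS lies near the end of chromosome 11 and had 12 tested neighbours on one side and 20 on the other, BET1L to AP2A2, with medians of 0.14, -0.26 and 0.29 beside its own 0.16, 0.39 and 0.67. In pools 17 and 28 the median had the sign of HRAS, and in pool 18 the opposite one. MAP2K2 on chromosome 19 had neighbours at 0.05, -0.05 and 0.29, and its own values were -0.37, -0.56 and -0.16. For NRAS, MAP2K1 and MAPK3 the neighbours' medians lay between -0.21 and 0.19. Neighbouring genes are not independent, and no test was made.

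In GENCODE v29, BRAF overlaps NDUFB2 on the opposite strand, ARAF overlaps SYN1 and MAP2K1 overlaps SNAPC5. Whether the libraries kept strand is not given, so reads of such partners cannot be told apart. NDUFB2, a subunit of respiratory complex I, differed by -0.49, 0.46 and -0.57 in pools 17, 18 and 28. Its sign was that of BRAF in pools 17 and 28 and the opposite in pool 18. SNAPC5, a subunit of a small nuclear RNA transcription factor, differed by 0.09, -0.36 and 0.45. MAP2K1 was at -0.01, 0.19 and 0.44 in the same pools. It hardly differed in pool 17, was opposite in sign to SNAPC5 in pool 18 and close to it in pool 28. Whether reads were shared was not tested. SYN1 was too low to be tested. RefSeq lists pseudogene copies of BRAF, ARAF and MAP2K1, and how shared reads were counted is not given, so the values of these 3 genes are uncertain to that extent.

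The genes whose pattern over the 6 libraries was closest to that of BRAF were taken from 8163 genes with a mean of at least 5 FPKM, by root mean square distance between log2(FPKM + 1) values centred on each gene's mean. They were SETD5, a gene of a SET domain protein linked to chromatin (0.06), NOB1, an endonuclease of ribosomal RNA maturation (0.07), MGAT4B, a glycosyltransferase (0.08), the small nucleolar RNA gene SNORD84 (0.09) and LRCH1 (0.10), against a median distance of 0.459. SETD5 had 6.19, 5.59 and 5.33 FPKM in resistant 17, 18 and 28, against 7.54, 9.58 and 11.5 FPKM in controls, the same order within each group as BRAF. The 5 genes were picked for likeness to BRAF in these libraries, so small distances and a shared order follow from the choice. Each of the 5 lies on another chromosome than BRAF. Of the other 6 pathway genes, ARAF ranked 470 and MAP2K2 661 by this distance, and HRAS was farthest at 6399.

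Around the 7 genes, 76 other genes of the pathway were listed in 6 groups, of which 61 were tested. None passed limma's adjusted threshold in either direction, and 8 had an unadjusted p under 0.05, which is 13.1% of them and 13.1% of all tested genes as well. Differences were negative for 39 of the 61 (63.9%, against 48.4% of all tested genes) and positive for 22, with a median of -0.10. Groups did not overlap for 8 that were lower (13.1%) and 5 that were higher (8.20%), close to the 11.1% and 10.1% of all tested genes.

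The group of exchange factors, which load RAS with GTP, and GTPase-activating proteins, which switch it off, was mostly on the lower side without a pass. Of its 13 tested genes, 0 passed, 10 had negative and 3 positive differences, and the median was -0.30 (-0.16 without resistant 18). RASGRF1, an exchange factor best known from neurons, had 0.153, 0.241 and 0.431 FPKM in resistant 17, 18 and 28, against 2.47, 4.25 and 1.48 FPKM in controls. All resistant values were low and the groups stood apart, with a log2 difference of -1.49 (SE 0.28, limma adjusted p = 0.173). Testing required at least 1 FPKM in at least 3 libraries, and every resistant value was under 1 FPKM. RASGRF1 was therefore tested only because all 3 controls reached that level, so the filter itself fixed that its groups stood apart. NF1, which encodes the GTPase-activating protein neurofibromin, had 3.05, 4.98 and 3.04 FPKM in resistant libraries, against 5.30, 6.81 and 9.86 FPKM in controls. Its groups did not overlap either, with a difference of -0.82 (SE 0.26, adjusted p = 0.269). These 2 genes act on RAS in opposite ways. RASGRP1, a lymphocyte exchange factor that answers to diacylglycerol, was named after its values were seen. It had 16.9, 7.25 and 7.88 FPKM in resistant libraries, against 16.7, 19.6 and 20.4 FPKM in controls, so that, as with BRAF, resistant 17 was at its control's level and resistant 18 and 28 below theirs (-0.86, adjusted p = 0.304).

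Among adaptors, scaffolds and RAF regulators, 0 of 18 tested genes passed, 8 were positive and 10 negative, and the median was 0.00. CDC37, the co-chaperone that delivers kinases including RAF to HSP90, had 106, 89.3 and 88.5 FPKM in resistant 17, 18 and 28, against 71.9, 40.0 and 32.9 FPKM in controls. All resistant libraries were above all controls, with a log2 difference of 1.03 (SE 0.29, limma adjusted p = 0.232). YWHAZ, a 14-3-3 protein gene whose product binds phosphorylated RAF, had a mean of 137 ± 16.9 FPKM in resistant libraries and 199 ± 34.9 in controls (-0.53, adjusted p = 0.348).

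The enzymes that attach, trim or move the lipid anchor of RAS had 0 of 8 genes that passed, 2 positive and 6 negative, with a median of -0.11. ZDHHC9, a palmitoyltransferase for HRAS and NRAS, differed by -0.40 (limma adjusted p = 0.422) and the methyltransferase gene ICMT by -0.15 (0.729). Among related genes of the core cascade outside the 7, 0 of 5 tested passed, 2 were positive and 3 negative, with a median of -0.10. RRAS, a RAS-related GTPase gene, had 3.52, 5.69 and 3.58 FPKM in resistant libraries, against 2.35, 2.77 and 3.36 FPKM in controls, without overlap (0.44, adjusted p = 0.422).

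Downstream of ERK, 11 substrate kinases and transcription factors had 0 that passed, 5 positive and 6 negative. ETS2, a transcription factor that ERK phosphorylates, had 4.65, 2.31 and 3.94 FPKM in resistant 17, 18 and 28, against 6.35, 6.73 and 7.95 FPKM in controls. Its groups stood apart, with a log2 difference of -0.82 (SE 0.23, limma adjusted p = 0.228). SRF, the partner of ternary complex factors that ERK activates, had a mean of 19.3 ± 1.62 FPKM in resistant libraries and 14.5 ± 1.49 in controls (SD, n = 3 each), also without overlap (0.39, adjusted p = 0.360).

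Pathway activity genes, transcripts used as a readout of ERK output, had 0 of 6 tested genes that passed, 2 positive and 4 negative, with a median of -0.31, and of -0.01 without resistant 18. DUSP4, a phosphatase that ERK induces and that acts back on it, had 15.9, 11.3 and 11.6 FPKM in resistant 17, 18 and 28, against 21.7, 18.9 and 20.5 FPKM in controls. Each resistant library was below every control, with a log2 difference of -0.63 (SE 0.18, limma adjusted p = 0.232). CCND1, the cyclin D1 gene, had 0.229, 0.0294 and 1.85 FPKM in resistant libraries, against 2.33, 0.498 and 1.28 FPKM in controls (-0.55, adjusted p = 0.630), with overlap.

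**Figure D5:**
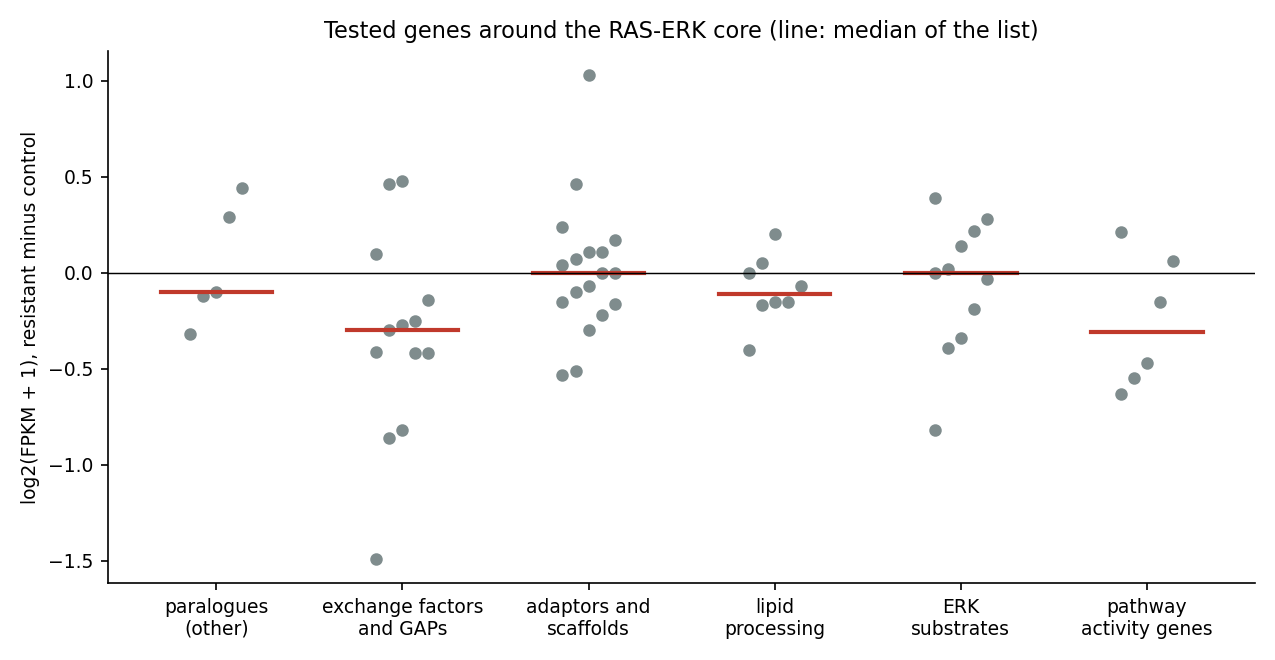
Log2 difference, resistant minus control, of each tested gene in the 6 pathway groups, 1 point a gene, with a red line at the median of each group. The group of paralogues holds related genes outside the 7. Exchange factors and GTPase-activating proteins have a median of -0.30 and the activity genes -0.31, where all tested genes have 0.01.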

How the data were processed

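Total RNA of 6 HG3 libraries was analysed. Per the labels' protocols, an RNeasy Plus Mini kit was used for extraction and a Bioanalyzer for RNA integrity. Nothing used here states the library type, strand or read length. The values deposited by the authors are FPKM per gene symbol, per the file headers, with decimal commas read as decimal marks. The submitters' processing notes name DESeq2, HTSeq 0.6.1, Cufflinks 2.2.1, TopHat2 2.0.4 and the build hg19. What each tool did, and which annotation it used, is not given in the sources used here. Because only FPKM were used, no count model was fitted and no counting interval is given.

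Genes with at least 1 FPKM in at least 3 of 6 libraries were tested in limma 3.58.1 (R 4.3.3), on log2(FPKM + 1), by lmFit and a two-sided eBayes test with a trend of variance on mean, without a block, with Benjamini-Hochberg adjustment over all 11307 genes and a threshold of 0.05. The pseudocount understates differences of low genes, and folds are ratios of mean FPKM. GC content and length came from GENCODE v29 protein-coding transcripts (10383 tested genes matched by symbol, 91.8%), and their trends were removed by loess with a span of 0.5. Relative depth came from low values: 73.5% to 78.5% of their ratios to control 17 then fell on small whole-number ratios, to within 0.02 on the log2 scale. Promoters came from RefSeq on GRCh38.p14, and other coordinates are not given because the build of the values is hg19.

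The series' design text speaks of pairs of pools. Deviations of same-numbered libraries from their group means correlated across genes at 0.148, 0.0892 and -0.0243 for pools 17, 18 and 28, and the pool as a block was an alternative. The others were pseudocounts of 0.1 and 5, other filters, 2 scalings, GC and length correction, array weights, and each library or pool left out. All 7 pathway genes are named, with the 2 genes of smallest p in each list where none passed and the 5 genes closest to BRAF. Other genes named were chosen after their values were seen, and 1 gene picked by the rule is not reported here. The 7 genes and the lists were chosen with earlier results of these data known.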

Additional observations from a re-analysis of the deposited data

How the results depend on the processing

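None of the 7 genes passed limma's threshold under any alternative that was run, and all but NRAS kept the sign of their group difference throughout. NRAS, at 0.04, was -0.038 with quantile normalization, -0.011 with GC and length trends removed, with or without the replicate block, and -0.015 with array weights, and between -0.033 and 0.094 with a library or pool left out. The count of genes that passed, 4 of 11307, was 3 with the replicate block, 2 of 10383 with GC and length trends removed, and 301 with array weights (0.162 for resistant 18, 1.03 to 1.93 for the others). With trends removed and the block, limma passed 0 of 10383, with 787 higher and 798 lower at an unadjusted p under 0.05. With a library or pool left out the count was 3 to 18 (13 without resistant 18, 18 without pool 18, 8 without resistant 17). The cause was not tested. The block changed no call on the 7 genes, and BRAF had an adjusted p of 0.376 with it.

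BRAF lay between -0.847 without pool 17 and -0.394 without pool 28, and HRAS between 0.275 and 0.558 with a library or pool left out. The 3 paralogue ratios kept the sign of their difference between groups in all 36 recomputed values, which include none within a single pool. With trends removed, ARAF and MAP2K2 were lower in all 3 pools and MAP2K1 higher, with no share of all genes to set beside them. Libraries per group (3) and unknown absolute depth limit the precision.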

Other observations

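Several genes commonly read as ERK targets were close to the lower end of measurement in these cells. DUSP6, the ERK phosphatase gene, had 0.0287, 0.115 and 0.0458 FPKM in resistant 17, 18 and 28, against 0.0902, 0.117 and 0.169 FPKM in controls. SPRY4, an inhibitor of receptor signalling to RAS, had 0.277, 0.0507 and 0.169 FPKM in resistant libraries, against 0.166, 0.107 and 0.122 FPKM in controls. Neither was tested, and both had values that overlapped between groups. EPHA2 and EPHA4, receptor tyrosine kinase genes, also stayed under 1 FPKM in all 6 libraries.

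ETV5, an ETS transcription factor gene, stood out in 1 library and was chosen after its values were seen. It had 6.04, 0.863 and 5.14 FPKM in resistant 17, 18 and 28, against 5.14, 4.50 and 5.36 FPKM in controls, so that resistant 18 was low and the other 5 were alike. Resistant 18 was also the library apart on the first principal component. PHLDA1, another activity gene chosen likewise, had 11.0, 5.56 and 3.88 FPKM in resistant 17, 18 and 28, against 5.33, 6.65 and 6.04 FPKM in controls, with resistant 17 the highest and resistant 28 the lowest.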
